A study of Rattus norvegicus with 18 samples.

Results

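The clustered histone genes of rat pXEN cells were the rows of the deposited gene tables whose symbol begins with Hist, a cluster digit, h and a histone family digit. Of 28695 rows, 34 matched, and the 30 with a total of 50 or more counts over 18 libraries were kept as members. They comprised 6 H1, 11 H2A, 8 H2B, 3 H3 and 2 H4 genes, of which 22 carry the symbol of cluster 1, 6 of cluster 2 and 2 of cluster 3. Among the matching rows the total alone chose the members. The histone genes as a set were chosen with earlier results of these data known, so that choice was not blind to the groups. Just inside the limit were Hist2h3c2 with 71 counts and Hist2h2be with 82, and just outside were Hist1h2bk with 34 and Hist2h2aa3 with 18. Hist1h4b and Hist2h4 were listed at 0.

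RNA was sequenced from 18 cultures of pXEN cells, a blastocyst-derived rat line of extraembryonic endoderm precursors, in 6 groups of 3. The labels give the WKY strain and female sex for all groups, and passages from 32 to 51 that differ between groups. Vacuolated cells were kept in routine medium with 0.5 µM CHIR99021, an inhibitor of the kinase GSK3 (unsorted), with 14% BCS (unsorted), or with CHIR99021 followed by a sort whose gate is not described. Vesicles were grown with CHIR99021 in serum or without serum. The protocol gives 3 µM CHIR99021 and 10 ng/ml murine LIF in N2B27 medium for vesicles. N2B27 has no serum, so this dose was assigned to the serum-free vesicles, and that of the serum vesicles is not clear. Normal cells were kept in routine medium without these additions. Passages were 37 to 51 in normal and unsorted CHIR99021-vacuolated cells and 32 to 42 in BCS-vacuolated cells and serum-free vesicles. They were 35 to 49 in sorted cells and 32 to 49 in serum vesicles. The labels call the samples of a group independent but name no separate derivations, so a p-value below measures only the spread between these samples, which may be technical.

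Clustered histone genes encode the replication-dependent core histones H2A, H2B, H3 and H4, which wrap new DNA into nucleosomes, and the linker histone H1, which binds between them. Their transcripts normally peak in S phase and end in a stem-loop, bound by the protein Slbp, instead of a poly(A) tail. Replacement histones, encoded elsewhere in the genome, are made throughout the cell cycle. Ribosomal RNA was removed from total RNA before library preparation, so a poly(A) tail was not needed for a transcript to be counted.

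Promoters of 5 members are shown because the fold changes of these genes were among the largest called in the vesicle comparisons below. Each window runs from 250 bases before to 50 bases after the RefSeq start site on build GRCr8, 5′ to 3′ on the gene's own strand. Capitals mark matches, on either strand, to CCAAT, to TATAAA, to the octamer ATTTGCAT and to AAACACA, an element known from H1 promoters.
Hist1h1a, an H1 gene at chr17:41794819-41795118 on the minus strand: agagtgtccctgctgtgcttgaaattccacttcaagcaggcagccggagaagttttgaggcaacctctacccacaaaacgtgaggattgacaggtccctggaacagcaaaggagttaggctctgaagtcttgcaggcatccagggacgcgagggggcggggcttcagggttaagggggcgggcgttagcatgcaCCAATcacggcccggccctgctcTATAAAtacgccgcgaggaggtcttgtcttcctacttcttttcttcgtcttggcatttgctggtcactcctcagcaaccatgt
Hist1h3b, an H3 gene at chr17:47418946-47419245 on the plus strand: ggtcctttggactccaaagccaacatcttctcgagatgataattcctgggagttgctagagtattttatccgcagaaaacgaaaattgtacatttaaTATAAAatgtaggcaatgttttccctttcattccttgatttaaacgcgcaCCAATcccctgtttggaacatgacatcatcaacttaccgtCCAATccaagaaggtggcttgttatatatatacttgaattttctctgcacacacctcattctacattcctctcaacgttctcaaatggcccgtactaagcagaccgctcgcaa
Hist1h2aa, an H2A gene at chr17:41599623-41599922 on the minus strand: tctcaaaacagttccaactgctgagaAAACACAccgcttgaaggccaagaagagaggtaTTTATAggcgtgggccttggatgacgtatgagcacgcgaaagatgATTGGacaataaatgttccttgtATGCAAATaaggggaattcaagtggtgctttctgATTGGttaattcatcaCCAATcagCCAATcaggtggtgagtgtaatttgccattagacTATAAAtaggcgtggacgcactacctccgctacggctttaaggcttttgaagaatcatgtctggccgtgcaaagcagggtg
Hist1h2ba, an H2B gene at chr17:41599662-41599961 on the plus strand: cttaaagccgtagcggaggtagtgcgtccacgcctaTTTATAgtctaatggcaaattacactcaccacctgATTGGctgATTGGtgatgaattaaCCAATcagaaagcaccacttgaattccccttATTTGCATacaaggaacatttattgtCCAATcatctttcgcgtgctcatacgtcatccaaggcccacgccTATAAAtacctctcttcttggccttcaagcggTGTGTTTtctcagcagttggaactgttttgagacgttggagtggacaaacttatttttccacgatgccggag
Hist1h2bd, an H2B gene at chr17:47488959-47489258 on the minus strand: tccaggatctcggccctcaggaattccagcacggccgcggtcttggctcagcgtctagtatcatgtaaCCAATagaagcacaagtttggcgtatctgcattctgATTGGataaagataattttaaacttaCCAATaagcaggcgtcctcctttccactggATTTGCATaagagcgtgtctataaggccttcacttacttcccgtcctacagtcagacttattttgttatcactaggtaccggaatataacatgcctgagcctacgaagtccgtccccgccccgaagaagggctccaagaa

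Hist1h2aa and Hist1h2ba, a testis H2A and H2B pair, start 239 bases apart and run in opposite directions, so 261 bases of their windows are the same DNA read from either strand. In Hist1h1a the CCAAT match begins 56 bases and the TATAAA match 33 bases before the start site. In Hist1h3b the CCAAT matches begin 103 and 63 bases before it. The octamer was found in the windows of Hist1h2aa, Hist1h2ba and Hist1h2bd, which were shown for their large fold changes and were lower in both vesicle groups. Among the other members with it, Hist1h2af was lower in both vesicle groups. Hist1h2ah, Hist1h2an and Hist3h2bb were called lower in serum vesicles only. Hist2h2ac was called in neither, and Hist2h2be was not tested. In all, 24 of 30 members matched 1 RefSeq gene by symbol or synonym, and 23 had a promoter window. CCAAT was in 21 of the 23 (91.3%) and in 37.7% of all 27457 RefSeq promoter windows. TATAAA was in 16 (69.6%) and in 14.3% of all windows. The octamer was in 9 (39.1%), 5 of 11 H2A and 4 of 6 H2B windows, and in 1.64% of all windows. AAACACA was in 4 (17.4%) and in 6.96% of all windows. The 4 were 2 of 3 H1 windows, not that of Hist1h1a, and those of Hist1h2aa and Hist1h2ba. The matches of Hist1h2aa and Hist1h2ba lie in their shared DNA, so the same sites were counted for both. Hist2h2ac and Hist2h2be, both with the octamer, start 225 bases apart and may also share a site. The matches are descriptions of sequence.

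Libraries ranged in depth between 4.05 M and 12.1 M strand-specific counts, of which 2 rows with clone-style symbols took 37.6 to 61.1%. The members took 11164 to 47809 counts per library, or 0.582 to 1.16% of the counts outside these rows. Levels below are counts scaled to library size (CPM, with edgeR's TMM factors), are not corrected for gene length, and compare 1 gene or 1 family between groups. Summed levels of 10 extraembryonic endoderm markers, each with counts in every group, were 2170 to 2410 CPM in serum vesicles and 2900 to 3070 CPM in serum-free vesicles, against 3870 to 4070 CPM in normal cells. Relative to normal cells, 6 of the 10 were lower and 1 was higher in serum vesicles, and 4 were lower and 2 higher in serum-free vesicles. Of 7 fibroblast markers, which summed to at most 15.9 CPM, Dcn was at 0 in every group. Of 2 fibroblast markers tested, 1 was lower in serum-free vesicles than in normal cells. Of 5 blood markers, at most 5.71 CPM, Hbb and Cd34 were at 0 in every group. Cd68, the 1 blood marker tested, was called higher in serum-free vesicles (2.64, 5.71 and 1.51 CPM) than in normal cells (0.897, 0.959 and 1.06). It was also called higher there than in serum vesicles (0.304, 0.974 and 0.231 CPM). Of 6 trophoblast markers, Cdx2 had 17.2 to 31.6 CPM in the vesicles of both kinds against 0 in normal cells, Eomes had 0.417 to 1.38 CPM against 6.96 to 8.97 in normal cells, and the other 4 were too low to test. Genes with an Mt- symbol, which are mitochondrially encoded, took more of the remaining counts in sorted cells (6.76 to 8.91%), serum vesicles (7.91 to 9.31%) and serum-free vesicles (7.11 to 9.43%) than in normal cells (3.13 to 3.38%). The part of this share and of the endoderm, trophoblast, fibroblast and blood markers in the members' differences was not tested.

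Histone copies can be near-identical, and how reads were shared between copies is not given in the sources used here, so the value of a single member may hold reads from another. For 8 of the 11 H2A members, the unstranded counts were below 95% of the strand-specific counts used here, from 0.633% for Hist2h2aa2 to 89.2% for Hist1h2af. Hist1h2ail1 had an even count in all 18 libraries, and its opposite-strand count was 33.4% of its counts on both strands. Levels of single H2A members are therefore uncertain, those of Hist2h2aa2 and Hist1h2ail1 above all.

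The summed level of all members was lower in sorted cells and serum vesicles than in normal cells, while unsorted vacuolated cells and serum-free vesicles overlapped normal cells. It was 5110, 5100 and 5410 CPM in unsorted CHIR99021-vacuolated cells, 4220, 4030 and 3980 in BCS-vacuolated cells, 3420, 3060 and 3470 in sorted cells, 3430, 3800 and 2570 in vesicles with serum, 4830, 3940 and 5570 in those without, and 5780, 3960 and 5630 in normal cells. Normal replicate 2 lay below the other normal libraries and below all 3 BCS-vacuolated libraries. Sorted cells and serum vesicles did not overlap normal cells, and their means were 1.54-fold and 1.57-fold lower. The means were 5210 ± 175 CPM in CHIR99021-vacuolated cells, 4080 ± 126 in BCS-vacuolated cells, 3320 ± 227 in sorted cells, 3270 ± 628 in vesicles with serum, 4780 ± 813 in those without and 5120 ± 1010 in normal cells (SD, n = 3 each). When the groups were ordered by these means, neighbours overlapped except BCS-vacuolated and sorted cells. In bulk RNA, fewer cells in S phase and less histone RNA per cell cannot be told apart.

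Family sums differed in their ratio to normal cells. The H2B sum was 1.58-fold lower in BCS-vacuolated cells, 1.90-fold lower in sorted cells, 2.38-fold lower in serum vesicles and 1.86-fold lower in serum-free vesicles than in normal cells, without overlap in any of the 4. The H3 sum was 363, 256 and 391 CPM in serum-free vesicles against 191, 133 and 162 in normal cells, 2.08-fold higher. Of this sum Hist1h3b averaged 234 CPM in serum-free vesicles against 62.3 CPM in normal cells, and Hist1h3a had 121, 77.6 and 107 CPM against 117, 76.9 and 102 CPM in normal cells. The H1 sum of serum-free vesicles was 2300 ± 376 CPM against 2310 ± 388 in normal cells. H1 made up 52.1 to 54.9% of the members' summed level in serum vesicles and 43.9 to 47.0% in normal cells, while H2B made up 5.37 to 8.12% in vesicles with serum, 5.57 to 6.66% in serum-free vesicles and 9.67 to 10.9% in normal cells. These are ratios of sums over libraries and carry no test.

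**Figure D1:**
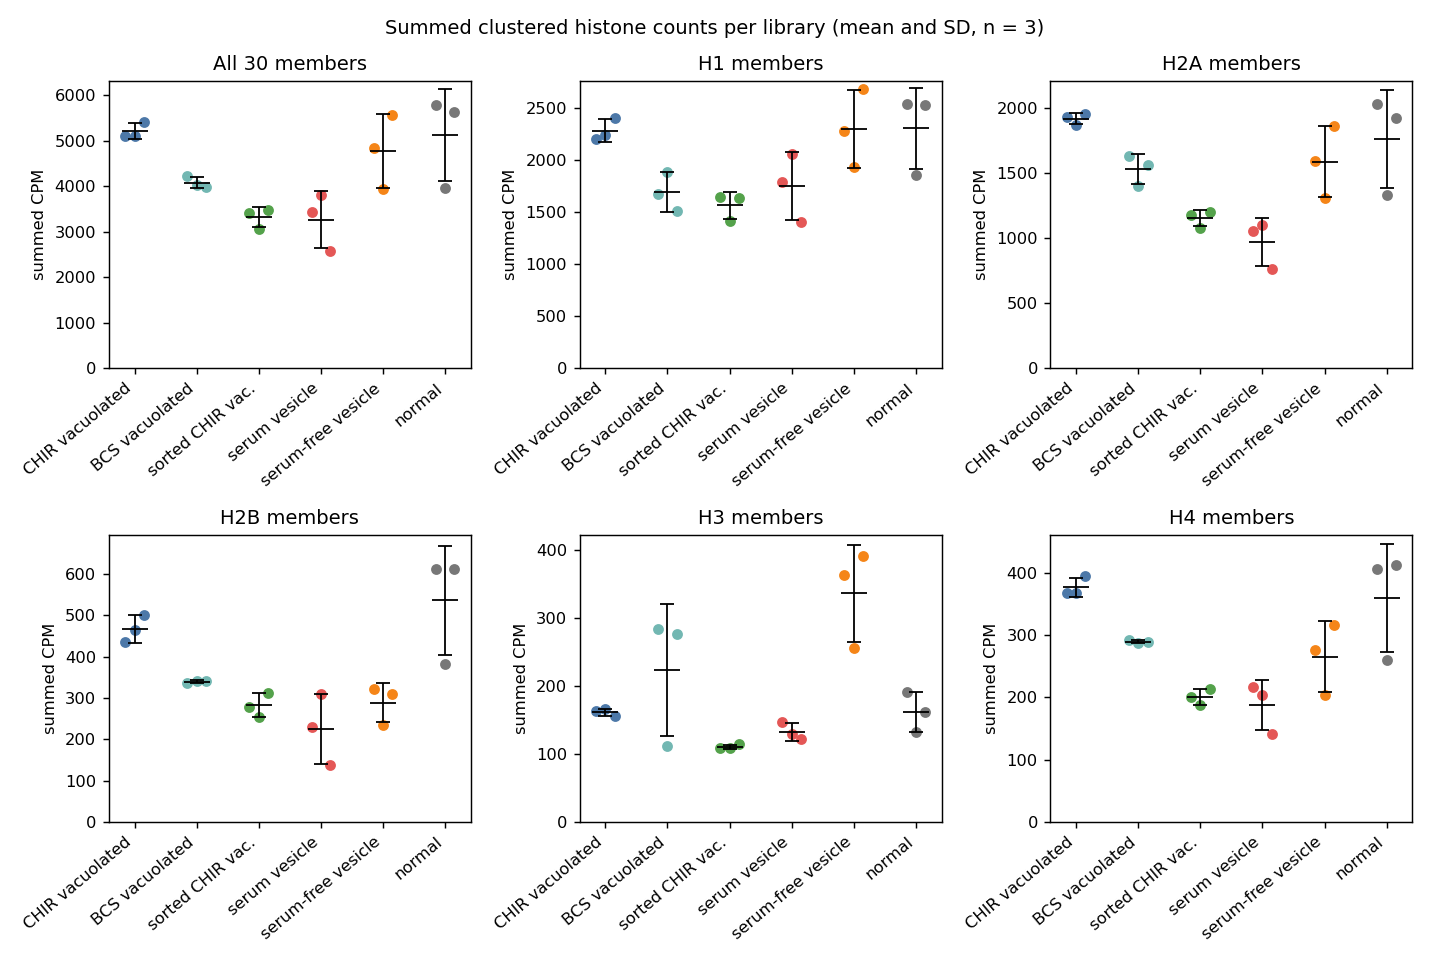
Summed CPM of all 30 members and of each histone family (vertical axes, starting at 0) in every library of the 6 groups; points are libraries, and the bar and whiskers are the mean and SD (n = 3). The H2B sum of both vesicle groups lies below all normal libraries, and the H3 sum of serum-free vesicles (256 to 391 CPM) lies above them.

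Single genes were compared by the quasi-likelihood test of edgeR over 11503 genes, and p-values adjusted by Benjamini-Hochberg were called below 0.05. Of the 30 members, 28 passed the filter on low counts and were tested, while Hist2h2be and Hist2h3c2 were not.

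Of 28 tested members, 1 was higher and 18 were lower in serum vesicles than in normal cells, where 31.7% of all genes tested were higher, 28.8% lower and 60.4% called in either direction. The share of members called lower was 64.3%. The median log2 fold change was -0.98 over the members and 0.06 over all genes. Lower were 3 of 6 H1, 7 of 11 H2A, 6 of 7 H2B and both H4 members, and neither tested H3 member passed.

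Among linker histones, Hist1h1a had 20.2, 21.7 and 15.2 CPM in serum vesicles against 104, 57.9 and 90.1 CPM in normal cells. All serum vesicle libraries lay below all normal ones (log2 fold change -2.13 ± 0.35 SE, adjusted p = 8.55e-05). Hist1h1b, another linker histone, fell to 189 ± 46.8 CPM in serum vesicles against 431 ± 94.1 in normal cells (SD, n = 3; -1.19 ± 0.15, adjusted p = 3.47e-07). Hist1h1c, whose human counterpart is also polyadenylated, was at 1020 ± 197 CPM against 1320 ± 217 in normal cells (-0.37 ± 0.16, adjusted p = 0.0497). Its groups overlapped, and the call was lost without normal replicate 1 (adjusted p = 0.146) or 3 (0.170) and without serum vesicle replicate 1 (0.0596) or 3 (0.246). It was also lost with upper-quartile scaling (0.0807) and with totals without the 2 most abundant rows (0.149). Hist1h1d at 379 ± 68.4 against 312 ± 36.2 CPM (adjusted p = 0.135) and Hist1h1e at 146 ± 16.7 against 163 ± 20 CPM (adjusted p = 0.284) did not pass.

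The testis pair and Hist1h2bd were, with Hist1h1a, the 4 called members of lowest fold change. Hist1h2aa had 1.22, 1.53 and 1.38 CPM in serum vesicles against 7.54, 4.41 and 10.9 in normal cells (log2 fold change -2.46 ± 0.40, adjusted p = 8.29e-06). Hist1h2ba had 3.65, 7.93 and 2.31 CPM against 19.7, 10.6 and 16.8 in normal cells (-1.70 ± 0.35, adjusted p = 0.000176). Hist1h2bd, an H2B gene whose human counterpart can end in a poly(A) tail, had 1.67, 1.67 and 1.61 CPM against 10.0, 6.72 and 10.6 in normal cells (-2.46 ± 0.50, adjusted p = 0.000245). In none of these 3 genes did the groups overlap, and all 3 are at low levels, with 7 to 12 counts of Hist1h2bd per serum vesicle library.

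The H2A and H2B members with most counts fell as well. Hist1h2ai had 177, 186 and 121 CPM in serum vesicles against 584, 364 and 572 in normal cells, without overlap (log2 fold change -1.65 ± 0.17, adjusted p = 1.9e-08). Hist1h2bo (-1.07 ± 0.21, adjusted p = 0.000171) and Hist1h2bl (-1.50 ± 0.24, adjusted p = 3.81e-05) also fell. The H4 gene Hist1h4m fell to 137 ± 29.5 CPM in serum vesicles against 292 ± 73.1 in normal cells (-1.09 ± 0.18, adjusted p = 1.27e-05). Hist1h2ah (adjusted p = 0.0307) and Hist2h4a (adjusted p = 0.0295) passed with overlapping groups. The call of Hist1h2ah was lost without normal replicate 1 (adjusted p = 0.138) or 3 (0.108) and without serum vesicle replicate 3 (0.175), and also with upper-quartile scaling (0.0540), totals without the 2 most abundant rows (0.109), unstranded counts (0.0773) and the 2 groups alone (0.0508). The call of Hist2h4a was lost without the same libraries (0.0926, 0.157 and 0.175), with those totals (0.101) and with the 2 groups alone (0.0553).

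The member that rose was Hist2h2ab, an H2A gene of cluster 2, with 9.58, 12.4 and 6.45 CPM in serum vesicles against 6.82, 6.14 and 4.69 in normal cells (log2 fold change 0.72 ± 0.29, adjusted p = 0.0355). Its groups overlapped, and the call was lost without normal replicate 2 (adjusted p = 0.0683) or 3 (0.152) and without serum vesicle replicate 1 (0.0670) or 2 (0.203). It was lost, too, without a filter on low counts (0.0535), with passage as a covariate (0.0881) and with the 2 groups alone (0.0621). The tested H3 members were Hist1h3a at 77.1 ± 5.80 CPM in serum vesicles against 98.8 ± 20.3 in normal cells (adjusted p = 0.241) and Hist1h3b at 55.5 ± 8.10 against 62.3 ± 9.02 (adjusted p = 0.657).

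Serum-free vesicles against normal cells had members on both sides. Of 28 tested, 4 were higher and 9 lower, where 30.2% of all genes were higher, 27.5% lower and 57.7% called. The members' shares were 14.3% and 32.1%, and their median log2 fold change was -0.22 against 0.03 over all genes. Higher were 1 H1, 2 H2A and 1 H3 member, and lower were 1 H1, 3 H2A, 4 H2B and 1 H4 member. This comparison shares the normal libraries with the previous one.

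Hist1h3b, a gene for replication-dependent H3, had 241, 178 and 283 CPM in serum-free vesicles against 72.5, 55.5 and 58.9 in normal cells. Every serum-free library lay above every normal one (log2 fold change 1.91 ± 0.29, adjusted p = 3.99e-05). Hist2h2ab had 18.1, 11.2 and 10.6 CPM against 6.82, 6.14 and 4.69 in normal cells (1.16 ± 0.28, adjusted p = 0.00109). Its counts on the opposite strand, 16.8% of its counts on both strands, were also higher, at 1.09 to 5.65 CPM in serum-free vesicles against 0.538 to 0.959 CPM in normal cells. These were only 67 counts in the serum-free and 13 in the normal libraries. In RefSeq, Hist2h2ac lies 90 bases from Hist2h2ab on the other strand, and the source of these counts was not tested. Hist1h2ao, an H2A gene of cluster 1, had 157, 124 and 181 CPM against 104, 75.8 and 66.6 in normal cells (0.91 ± 0.26, adjusted p = 0.00761). The linker histone Hist1h1d had 534, 370 and 631 CPM against 331, 271 and 336 in normal cells (0.71 ± 0.16, adjusted p = 0.000565). None of the 4 overlapped between the groups.

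Hist1h2bd had 1.88, 1.09 and 1.75 CPM in serum-free vesicles (log2 fold change -2.55 ± 0.49 against normal cells, adjusted p = 0.000142). Hist1h2ba had 3.39, 3.52 and 4.31 CPM (-2.06 ± 0.35, adjusted p = 2.34e-05), and Hist1h2aa had 2.64, 1.34 and 1.98 CPM (-1.99 ± 0.37, adjusted p = 5.34e-05). In all 3 genes the serum-free libraries lay below the normal ones. Hist1h1t, the testis linker histone, had 4, 5 and 2 counts in serum-free vesicles against 4, 20 and 17 in normal cells (-2.19 ± 0.68, adjusted p = 0.00758). Its groups overlapped, and without normal replicate 2 the adjusted p was 0.0608. Hist1h2ai (-1.09 ± 0.17, adjusted p = 7.9e-06), Hist1h2bl (-1.05 ± 0.24, adjusted p = 0.00104) and Hist1h2bo (-0.85 ± 0.20, adjusted p = 0.00147) fell without overlap. Hist1h4m had a log2 fold change of -0.47 ± 0.17 (edgeR, adjusted p = 0.0229), a call lost without normal replicate 1 (0.111) or 3 (0.118) or serum-free replicate 2 (0.147) and with the 2 groups alone (0.0745). Hist1h1c had 1150 ± 168 CPM in serum-free vesicles against 1320 ± 217 in normal cells (adjusted p = 0.311).

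**Figure D2:**
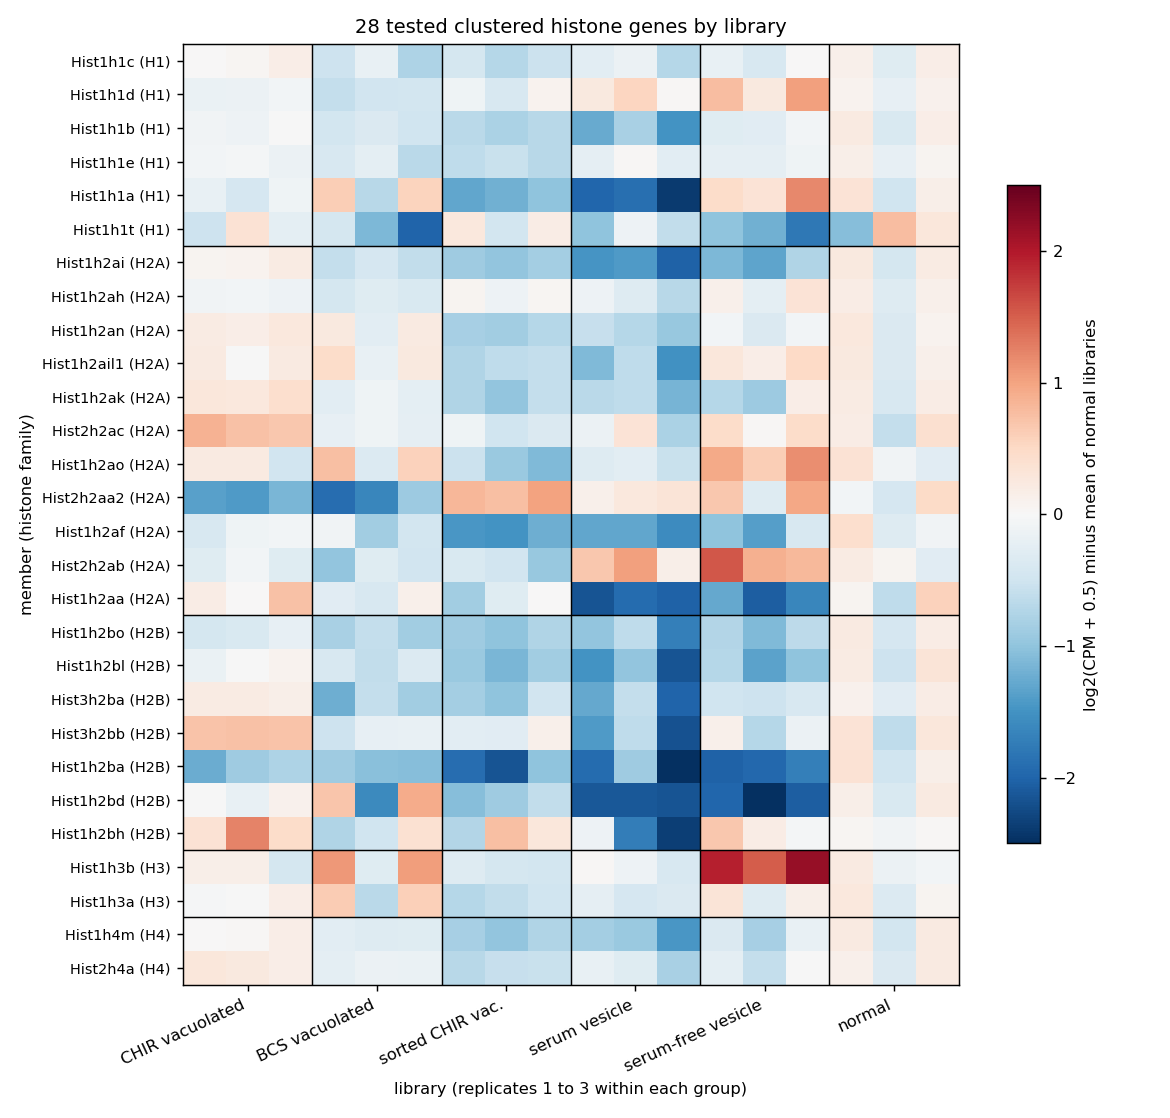
Level of the 28 tested members (rows, by family) in each of 18 libraries (columns), as log2(CPM + 0.5) minus the mean of the normal libraries; red is higher and blue lower. Hist1h3b is red in serum-free vesicles, and Hist1h2aa, Hist1h2ba and Hist1h2bd are blue in both vesicle groups. Hist1h2ba is also blue in the vacuolated groups, sorted and unsorted.

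With serum-free vesicles set against serum vesicles, 11 of 28 members were higher and none lower, where 12.9% of all genes were higher, 11.5% lower and 24.4% called. The share of members called higher was 39.3%, and edgeR had 13 higher and 0 lower below an unadjusted p of 0.05, as many as DESeq2 called. The median log2 fold change was 0.45 over the members and 0.02 over all genes. Higher were 2 of 6 H1, 5 of 11 H2A, 2 of 7 H2B, 1 of 2 H3 and 1 of 2 H4 members. The count was 6 without serum vesicle replicate 3, without serum-free replicate 3 or with the 2 groups alone, 7 with totals without the 2 most abundant rows and 18 without a filter on low counts.

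Hist1h1a had 113, 103 and 189 CPM in serum-free vesicles against 20.2, 21.7 and 15.2 in serum vesicles (log2 fold change 2.81 ± 0.35, adjusted p = 6.84e-05), a 7.02-fold higher mean. Against normal cells its serum-free level did not pass (0.68 ± 0.31, adjusted p = 0.0738), with 104, 57.9 and 90.1 CPM in the normal libraries. Hist1h3b was 4.21-fold higher in serum-free than in serum vesicles (62.8, 56.8 and 46.8 CPM in the serum vesicles; 2.07 ± 0.29, adjusted p = 0.000168). Hist1h2ail1 had 312, 290 and 365 CPM in serum-free vesicles against 119, 167 and 89.9 in serum vesicles (1.36 ± 0.19, adjusted p = 5.43e-05). Hist1h2ao had 157, 124 and 181 CPM against 64.0, 67.4 and 54.6 in serum vesicles (1.31 ± 0.27, adjusted p = 0.0024). None of the 4 overlapped between the vesicle groups.

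Hist1h1b, the linker histone that fell in serum vesicles, had 365 ± 33.8 CPM in serum-free vesicles against 189 ± 46.8 in serum vesicles (log2 fold change 0.94 ± 0.15, adjusted p = 9.92e-05). Hist1h2an, an H2A gene, was 1.49-fold higher (adjusted p = 0.00675). Hist1h2ai (0.56 ± 0.17, adjusted p = 0.0178) and Hist1h4m (0.62 ± 0.17, adjusted p = 0.0132) passed too, but their calls were lost without serum vesicle replicate 3 (adjusted p = 0.110 and 0.0836) or serum-free replicate 3 (0.121 and 0.0810), with totals without the 2 most abundant rows (0.0731 and 0.0554) and with the 2 groups alone (0.0906 and 0.0783). Hist1h2ah (0.46 ± 0.15, adjusted p = 0.0295) lost its call without serum vesicle replicate 3 (0.167) and without serum-free replicate 1 (0.0545) or 3 (0.171), and with those totals (0.147), unstranded counts (0.0668) and the 2 groups alone (0.150). Serum, medium, LIF and possibly the CHIR99021 dose differ between the vesicle groups and cannot be told apart.

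**Figure D3:**
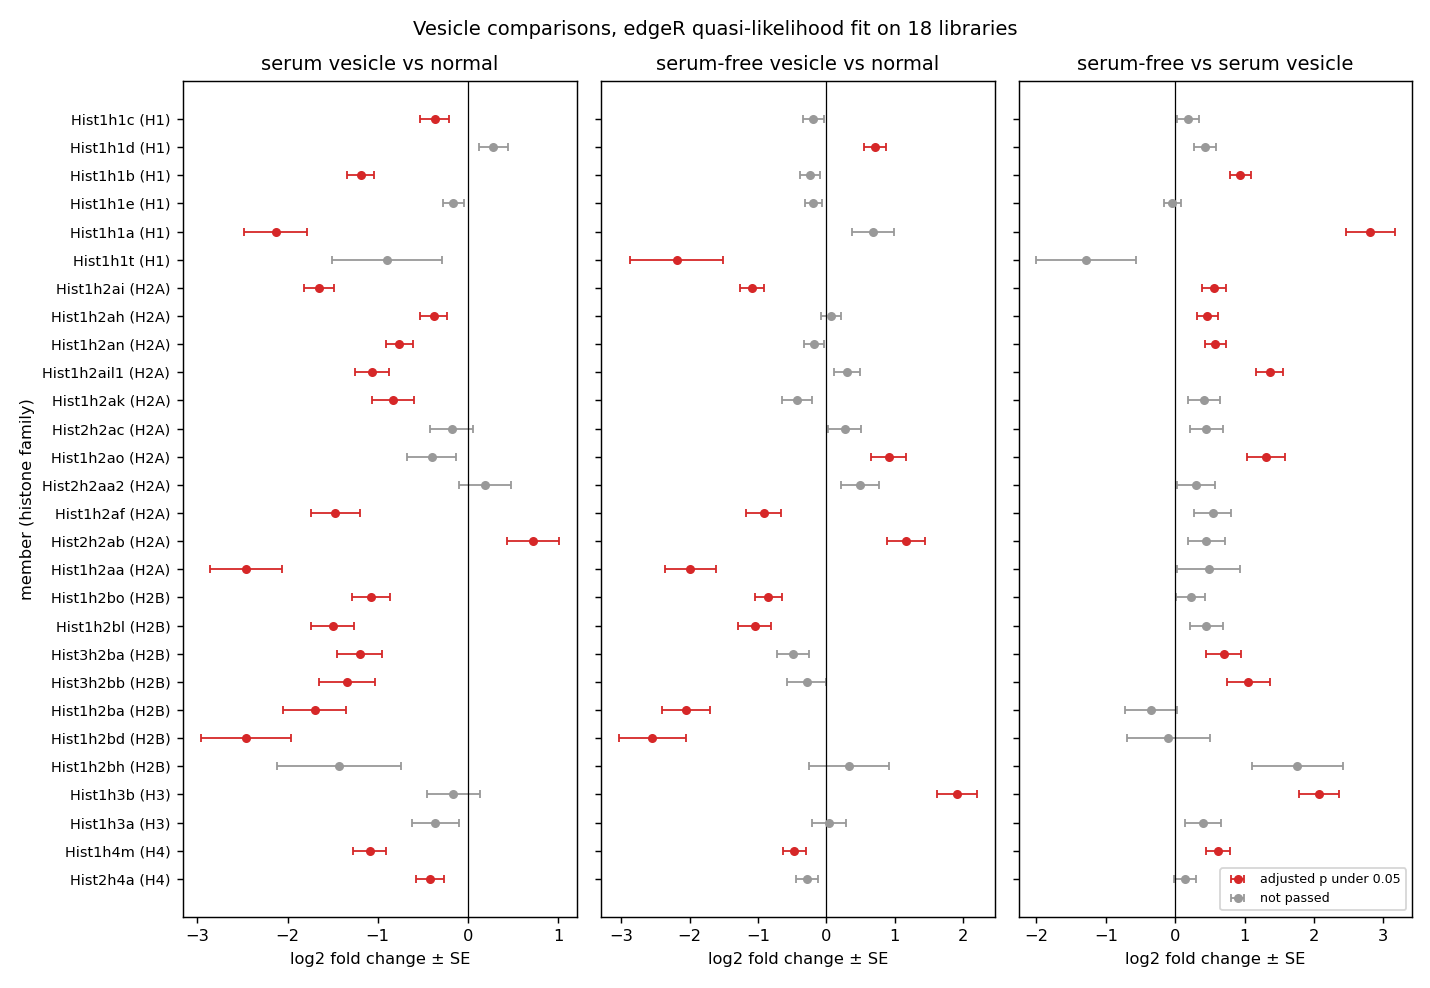
Log2 fold change ± SE (horizontal axes) of the 28 tested members in 3 comparisons of vesicles; red points passed an adjusted p of 0.05 and grey points did not. In serum vesicles 18 red points lie left of 0 and 1 right of it, and between the vesicle groups 11 lie right of it and none left.

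The sort of CHIR99021-vacuolated cells went with lower levels of members of most families. Of 28 tested members, 1 was higher and 16 lower in sorted than in normal cells, where 14.4% of all genes were higher, 11.5% lower and 25.9% called. The members' share lower was 57.1%, and their median log2 fold change was -0.67 against 0.01 over all genes. In sorted against unsorted CHIR99021-vacuolated cells, 1 was higher and 15 lower (53.6%), where 6.69% of all genes were higher, 5.05% lower and 11.7% called, with a median of -0.76 against 0.01. The comparisons share the sorted libraries. Sorted cells were at passages 35, 38 and 49 and unsorted ones at 37, 41 and 51, so sort, culture and passage cannot be told apart. Without normal replicate 1, the count called against normal cells was 10.

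Against normal cells, Hist1h2ba had 3.69, 3.02 and 7.34 CPM in sorted cells against 19.7, 10.6 and 16.8 (log2 fold change -1.71 ± 0.33, adjusted p = 0.000522). Hist1h2af, an H2A gene, had 6.34, 6.15 and 7.50 CPM in sorted cells against 24.6, 14.4 and 17.0 in normal cells (-1.48 ± 0.25, adjusted p = 0.000134). Hist1h1a had 33.0, 35.0 and 40.4 CPM against 104, 57.9 and 90.1 in normal cells (-1.22 ± 0.32, adjusted p = 0.0122), and the adjusted p without normal replicate 1 was 0.0513. None of the 3 overlapped between the groups. The log2 fold change was -1.03 ± 0.24 for Hist1h2bl (adjusted p = 0.00382), -0.94 ± 0.17 for Hist1h2ai (adjusted p = 0.000238) and -0.91 ± 0.20 for Hist1h2bo (adjusted p = 0.00273). The H4 members Hist1h4m (-0.89 ± 0.17, adjusted p = 0.000628) and Hist2h4a (-0.64 ± 0.16, adjusted p = 0.00525) fell too.

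Against unsorted CHIR99021-vacuolated cells, Hist1h2af fell in sorted cells (-1.25 ± 0.25 on the log2 scale, adjusted p = 0.00179). Hist1h2ak, an H2A gene, had 85.2 ± 11.9 CPM in sorted and 183 ± 11.3 CPM in unsorted cells (-1.10 ± 0.22, adjusted p = 0.00342). Hist2h2ac had 86.7, 65.6 and 72.2 CPM in sorted cells against 170, 155 and 149 in unsorted cells (-1.08 ± 0.24, adjusted p = 0.0067). Hist1h2ai had 268, 250 and 274 CPM in sorted cells against 516, 528 and 568 in unsorted cells (-1.03 ± 0.17, adjusted p = 0.000249), and the groups overlapped in none of these genes. Both H4 members were lower, Hist1h4m (-0.93 ± 0.17, adjusted p = 0.00103) and Hist2h4a (-0.84 ± 0.16, adjusted p = 0.00117), and neither tested H3 member passed.

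Hist2h2aa2, an H2A gene of cluster 2, went the other way in sorted cells. It had 19.7, 18.6 and 22.5 CPM in sorted cells against 3.93, 3.79 and 4.65 in unsorted CHIR99021-vacuolated cells (log2 fold change 2.29 ± 0.30, adjusted p = 2.04e-05), with 10.4, 8.06 and 15.4 CPM in normal cells. It was higher in sorted than in normal cells (0.83 ± 0.27, adjusted p = 0.0275), a call lost without normal replicate 1 (0.0945) or 2 (0.148) or sorted replicate 1 (0.0521) or 3 (0.0952). It was lower than in normal cells in unsorted CHIR99021-vacuolated cells (-1.46 ± 0.32, adjusted p = 0.00416) and in BCS-vacuolated cells, which had 2.54, 3.19 and 5.57 CPM (-1.58 ± 0.32, adjusted p = 0.00104). In unstranded counting it kept 10 of its 1581 counts and had too few to be tested, so its pattern rests on the strand-specific column alone.

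**Figure D4:**
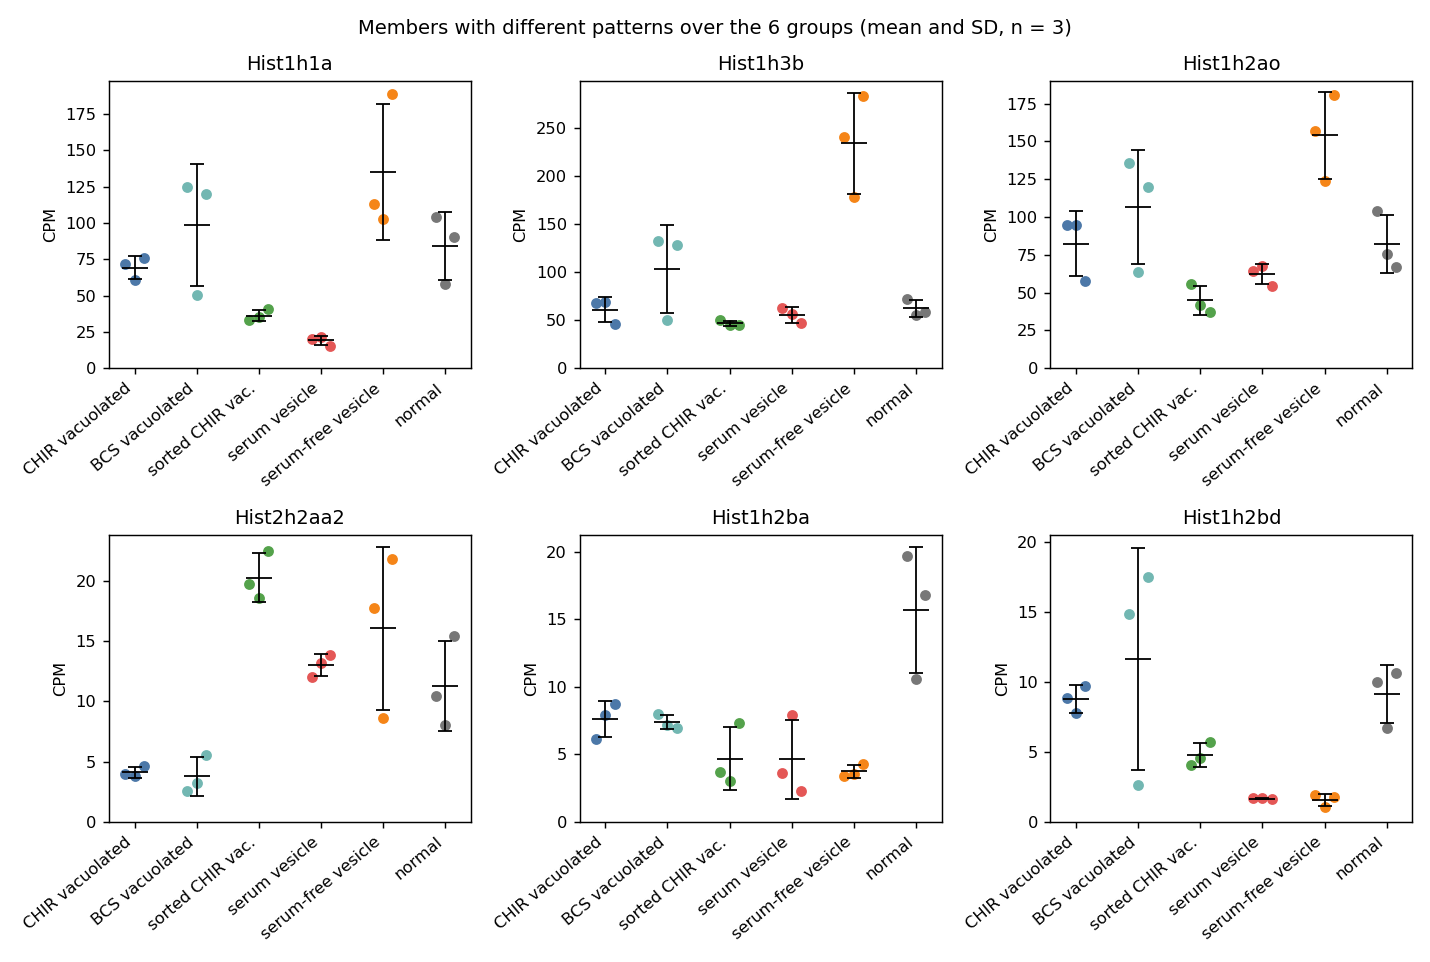
CPM of 6 members (vertical axes, starting at 0) in every library of the 6 groups; points are libraries, and the bar and whiskers are the mean and SD (n = 3). Hist1h1a is low in serum vesicles (15.2 to 21.7 CPM), and Hist1h3b is high in serum-free vesicles (178 to 283 CPM). Hist2h2aa2 is high in sorted cells, and Hist1h2bd is low in both vesicle groups. Hist1h2ba is low in both vesicle groups and in sorted cells (mean 4.68 CPM in sorted cells). Its mean is 7.62 CPM in unsorted CHIR99021-vacuolated, 7.37 in BCS-vacuolated and 15.7 in normal cells.

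Few members passed in unsorted CHIR99021-vacuolated against normal cells. None of 28 members was called higher and 1, Hist2h2aa2, was lower, where 4.49% of all genes were higher, 3.13% lower and 7.62% called. In the edgeR test 2 members were higher and 2 lower at an unadjusted p under 0.05, and DESeq2 called 1 higher and 2 lower. The median log2 fold change was -0.02 over the members and 0 over all genes. Hist1h2ba had 6.17, 7.93 and 8.75 CPM in CHIR99021-vacuolated cells against 19.7, 10.6 and 16.8 in normal cells, without overlap (-1.05 ± 0.33, adjusted p = 0.0511).

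BCS-vacuolated cells had 9 of 28 members lower (32.1%) and none higher than normal cells, where 11.2% of all genes were higher, 9.51% lower and 20.7% called. In the edgeR test 1 member was higher and 12 were lower at an unadjusted p under 0.05, and DESeq2 called 1 higher and 10 lower. The 9 were 4 H1, 2 H2A and 3 H2B genes, and the median log2 fold change was -0.38 against 0 over all genes. After Hist2h2aa2 the lowest were Hist1h2ba, with 7.97, 7.16 and 6.99 CPM (-1.10 ± 0.33, adjusted p = 0.0193), Hist3h2ba, an H2B gene of cluster 3 (-0.90 ± 0.24, adjusted p = 0.00916), and Hist1h2bo (-0.79 ± 0.20, adjusted p = 0.0100). The count was 3 without normal replicate 1 or 3 or without BCS replicate 1 or 3, and 13 (4 higher and 9 lower) without BCS replicate 2. The adjusted p of Hist1h2ba was 0.0536 to 0.101 without each of normal replicates 1 and 3 and BCS replicates 1 and 3. Hist3h2ba lost its call without BCS replicate 1 (0.0620), as did Hist1h2bo (0.0501), which also lost it without normal replicate 1 (0.0514).

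BCS replicate 2, at passage 32, lay apart from replicates 1 and 3, at passages 41 and 42, in part of the members. In 7 of 30 its level was more than 1.5 times below the mean of the other BCS libraries, and in none more than 1.5 times above. Among the 7 was Hist2h3c2, with only 4, 3 and 3 counts in the BCS libraries. The same share was not computed over all genes or for other libraries, so 7 of 30 does not set the members apart. Hist1h2bd had 14.8, 2.64 and 17.5 CPM in BCS replicates 1 to 3, and Hist1h3b had 132, 50.2 and 128 CPM. Hist1h3a had 151, 60.9 and 147 CPM and Hist1h1a had 125, 50.1 and 120 CPM. For Hist1h3b the comparison with normal cells (log2 fold change 0.73 ± 0.29, adjusted p = 0.088) did not pass. Passage and replicate cannot be told apart here.

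Between the unsorted vacuolated groups, 5 of 28 members were higher with CHIR99021 than with BCS (17.9%) and none lower, where 5.83% of all genes were higher, 7.4% lower and 13.2% called. The edgeR test had 12 higher and 1 lower under an unadjusted p of 0.05, and DESeq2 called 6 higher and 1 lower. Hist3h2ba had 25.4, 25.4 and 24.3 CPM with CHIR99021 against 9.16, 14.4 and 11.8 with BCS (log2 fold change 1.07 ± 0.24, adjusted p = 0.00346). Its neighbour Hist3h2bb, also an H2B gene, had 26.9, 27.6 and 26.9 CPM against 11.2, 14.1 and 14.2 with BCS (1.03 ± 0.27, adjusted p = 0.0143). Hist2h2ac (0.95 ± 0.24, adjusted p = 0.0134), Hist1h2ai (0.66 ± 0.17, adjusted p = 0.00985) and Hist1h1c (0.54 ± 0.16, adjusted p = 0.0243) were the others, and the groups overlapped in none of the 5. The count was 2 without BCS replicate 1, 3 without BCS replicate 3 or CHIR99021 replicate 1 or 2, 10 without BCS replicate 2 (6 higher and 4 lower) or without a filter on low counts (8 higher and 2 lower), and 12, all higher, with the 2 groups alone. Hist3h2bb lost its call without CHIR99021 replicate 2 (0.0524) or BCS replicate 1 (0.0836). Hist2h2ac lost it without CHIR99021 replicate 1 (0.0539) or BCS replicate 1 (0.0586) or 3 (0.0537), and with unstranded counts (0.108). The adjusted p of Hist1h1c was 0.0546 to 0.146 without each library but BCS replicate 2.

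Serum vesicles against unsorted CHIR99021-vacuolated cells had 3 of 28 members higher and 18 lower (64.3%), where 30.3% of all genes were higher, 27.6% lower and 58% called. The serum vesicles are the same libraries as in the comparison with normal cells. Lowest were Hist1h2aa (log2 fold change -2.73 ± 0.39, adjusted p = 1.76e-06), Hist1h2bd (-2.40 ± 0.50, adjusted p = 0.000329) and Hist1h2bh, an H2B gene with 12, 2 and 0 counts in serum vesicles against 20, 32 and 22 (-2.28 ± 0.64, adjusted p = 0.00409). Hist3h2bb had 5.78, 10.4 and 3.23 CPM in serum vesicles against 26.9, 27.6 and 26.9 in CHIR99021-vacuolated cells (-2 ± 0.30, adjusted p = 6.34e-06). Higher were Hist2h2aa2 (1.65 ± 0.32, adjusted p = 1e-04), Hist2h2ab (0.97 ± 0.29, adjusted p = 0.00616) and Hist1h1d (0.40 ± 0.16, adjusted p = 0.0341). Hist2h2ab had an adjusted p of 0.0541 without serum vesicle replicate 2, and Hist1h1d lost its call without each library of these groups but serum vesicle replicate 3 (0.0613 to 0.203).

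The untested members had few counts, at most 18 in a library for Hist2h2be and 8 for Hist2h3c2. Hist2h2be, an H2B gene whose human counterpart can be polyadenylated, had 17, 8 and 18 counts in serum-free vesicles and 3, 5 and 0 in serum vesicles, against 5, 5 and 3 in normal cells. In a fit on all 12470 rows with 50 or more counts its log2 fold change between serum-free and serum vesicles was 2.22 ± 0.68 (edgeR adjusted p = 0.0196), and between serum-free vesicles and normal cells 1.41 ± 0.63 (edgeR adjusted p = 0.0604). Sorted cells had 1, 1 and 2 counts of Hist2h2be. In the same fit it was lower in sorted than in normal cells (-2.38 ± 0.83, edgeR adjusted p = 0.0378). Hist2h3c2, an H3 gene, had 4, 3 and 8 counts in serum-free vesicles and 6, 3 and 0 in serum vesicles, against 8, 4 and 7 in normal cells. Of the 6 genes listed as also polyadenylated in human cells, Hist1h1c, Hist1h2bd, Hist2h2be and Hist1h2bk were in the files, and the first 2 of these were tested. In serum vesicles Hist1h1c was 1.29-fold and Hist1h2bd 5.48-fold lower than in normal cells.

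Factors that make and process histone transcripts were called in both directions. Of 18 tested genes of transcription and 3′ end processing, 3 were higher and 3 lower in serum vesicles than in normal cells, and 2 higher and 5 lower in serum-free vesicles. Of all genes tested, 31.7% were higher and 28.8% lower in serum vesicles, and 30.2% were higher and 27.5% lower in serum-free vesicles. Slbp averaged 62.7 ± 6.29 CPM in serum-free vesicles and 49.6 ± 7.43 CPM in serum vesicles against 56.8 ± 1.59 CPM in normal cells, with adjusted p of 0.257 for serum vesicles against normal cells, 0.389 for serum-free vesicles against normal cells and 0.0846 between the vesicle groups. Npat, a coactivator of histone gene transcription, had 84.9 ± 21.2 CPM in serum vesicles and 89.5 ± 7.30 in normal cells (adjusted p = 0.663). Ncbp1, a cap-binding protein, fell in serum vesicles (-0.85 ± 0.20, adjusted p = 0.000687) and in serum-free vesicles (-1.42 ± 0.20, adjusted p = 1.8e-06).

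Of 23 tested histone chaperones, 3 were higher and 13 lower in serum vesicles than in normal cells, and 2 higher and 16 lower in serum-free vesicles, beside the shares of all genes just given. Chaf1b, a subunit of the chromatin assembly factor CAF-1, fell to 13.6 ± 1.96 CPM in serum vesicles and 12.7 ± 1.31 in serum-free vesicles, against 42.2 ± 3.19 in normal cells (adjusted p = 2.06e-09 and 7.93e-10). Nasp, a chaperone of H3 and H4, fell in serum vesicles (-1.21 ± 0.12, adjusted p = 6.71e-09). Rbbp7, a histone-binding subunit, rose relative to normal cells in serum vesicles (1.74 ± 0.19, adjusted p = 5.39e-08), serum-free vesicles (1.67 ± 0.19, adjusted p = 1.12e-07) and sorted cells (1.84 ± 0.19, adjusted p = 4.27e-07), and also in CHIR99021-vacuolated cells (1.31 ± 0.19, adjusted p = 7.28e-05) and BCS-vacuolated cells (0.55 ± 0.18, adjusted p = 0.0369). The BCS call was lost with passage as a covariate (0.0566) and without each library of the 2 groups but normal replicate 2 (0.0558 to 0.128).

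Of 34 tested S-phase genes, 25 were lower and 1 higher in serum vesicles than in normal cells. Of all genes tested, 28.8% were lower and 31.7% higher there. In serum-free vesicles 18 S-phase genes were lower and 3 higher than in normal cells, beside 27.5% and 30.2% of all genes. Between the vesicle groups 12 were higher and 2 lower in serum-free vesicles, beside 12.9% and 11.5% of all genes. Ccne1, cyclin E1, which drives entry into S phase, had 9.10 ± 0.310 CPM in serum-free vesicles and 13.5 ± 4.27 in serum vesicles, against 67.5 ± 3.50 in normal cells. It had 39.0, 49.0 and 43.7 CPM in unsorted CHIR99021-vacuolated cells. In BCS-vacuolated cells it had 39.9, 38.5 and 46.7 CPM, and in sorted cells 36.9, 32.8 and 45.9. In sorted cells, where 16 of 28 members were lower than in normal cells, 9 S-phase genes were lower and 1 higher, while 5 of 17 mitosis genes were higher. Of all genes, 11.5% were lower and 14.4% higher in that comparison. Mki67, a proliferation marker, rose in sorted against normal cells (0.83 ± 0.20, adjusted p = 0.00459), as did Cdc20 (0.85 ± 0.13, adjusted p = 2.22e-05), an activator of mitotic exit. The level of Cdc20 was not particular to sorted cells (98.5, 129 and 107 CPM). It had 107, 94.2 and 119 CPM in unsorted CHIR99021-vacuolated cells and 146, 137 and 151 in BCS-vacuolated cells. Normal cells had 64.6, 61.4 and 59.5 CPM of Cdc20. In serum vesicles 14 mitosis genes were lower and 1 higher than in normal cells, beside 28.8% and 31.7% of all genes. Serum-free vesicles had 11 mitosis genes lower and 2 higher than normal cells, beside 27.5% and 30.2% of all genes. The part of these cell cycle genes in the members' levels was not tested.

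Among 9 tested replacement and other histone genes outside the clusters, 1 was higher and 4 lower in serum vesicles than in normal cells, and 3 higher and 4 lower in serum-free vesicles, where 31.7% of all genes were higher and 28.8% lower with serum and 30.2% higher and 27.5% lower without it. H2afz, which encodes the variant H2A.Z, fell to 62.9 ± 17.4 CPM in serum vesicles and 96.2 ± 13.7 in serum-free vesicles, against 246 ± 13.5 in normal cells (adjusted p = 2.48e-10 and 8.32e-08). H2afx, for the DNA damage variant H2A.X, fell in serum vesicles (-1.30 ± 0.16, adjusted p = 1.37e-07) and serum-free vesicles (-0.64 ± 0.16, adjusted p = 0.00111). The H3.3 genes H3f3a and H3f3b rose in serum-free vesicles, to 187 ± 13.2 and 618 ± 23.9 CPM against 106 ± 4.99 and 321 ± 9.66 in normal cells (adjusted p = 1.64e-06 and 1.28e-05). In serum vesicles they did not pass (adjusted p = 0.202 and 0.218).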

How the data were processed

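Gene counts of 18 libraries were used as deposited. Per the submitters' processing notes, reads were processed with bcl2fastq, Trimmomatic 0.38 and STAR 2.6.1 with build rn6; per the labels' protocols, RNA was depleted of ribosomal RNA and prepared with a directional kit. The counts were whole numbers in 3 columns, unstranded and 1 per strand, and column 4, the strand with nearly all counts, was used. The other strand held 1.70 to 2.85% of the counts of both.

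The analysis used edgeR 4.0.16 and limma 3.58.1 in R 4.3.3, with DESeq2 1.42.0 as an alternative. The default filter by group (minimum count 10) left 11503 of 28695 rows, and libraries were scaled by TMM. All 18 libraries entered a robust quasi-likelihood fit of 6 group means, which left 12 residual degrees of freedom. The p-values of each of 9 comparisons were adjusted over all genes by Benjamini-Hochberg, with a threshold of 0.05. Summed levels were not tested. The precision of a value is limited by 3 libraries a group and, for members of few counts, by depth. Replicates correlated at 0.937 to 0.986 across genes, and no libraries were identical. On simulated data for serum vesicles against normal cells (11191 genes), the code called 34% of genes changed 1.5-fold, 82% changed 2-fold and 100% changed 4- or 8-fold, and 7 of 10991 unchanged genes. Only 50 genes per fold were changed, drawn from those above a set mean level. The rates therefore do not cover members of lowest level, such as Hist1h1t (mean 1.47 CPM) and Hist1h2bh (2.24 CPM). In the data many more genes were called.

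The members and all lists were chosen with earlier results of these data known. Named were the 2 members of each family with the highest level, the genes with a known human poly(A) form, up to 4 highest and 4 lowest called members per comparison, up to 4 genes per list by adjusted p, and Slbp, Npat, H2afx, H2afz, H3f3a and H3f3b. Other members and list genes were named after their values were seen. Promoters came from RefSeq (GRCr8); the files use rn6, and no coordinates were converted. The alternatives were other scalings, DESeq2, other filters on low counts, unstranded counts, passage as a covariate, the 2 groups alone, a replicate block and each library left out. The halving of Hist1h2ail1's counts was added after the data were seen and changed no call.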

Additional observations from a re-analysis of the deposited data

How the results depend on the processing

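The count of members called in CHIR99021-vacuolated against normal cells, 1 in the reported fit, was 2 with DESeq2 size factors, upper-quartile scaling or totals without the 2 most abundant rows, 3 with DESeq2 or with the 2 groups alone, and 4 without a filter. In serum-free against serum vesicles (11) it was 7 with totals without the 2 most abundant rows, 18 without a filter and 6 with the 2 groups alone. In CHIR99021- against BCS-vacuolated cells (5) it was 10 without a filter and 12 with the 2 groups alone. With a library left out, the counts against normal cells ranged from 1 to 2 (CHIR99021-vacuolated), 3 to 13 (BCS-vacuolated), 10 to 18 (sorted), 15 to 18 (serum vesicles) and 12 to 16 (serum-free vesicles). Those of the other comparisons ranged from 6 to 15 between the vesicle groups, 12 to 15 in sorted against unsorted cells, 2 to 10 in CHIR99021- against BCS-vacuolated cells and 19 to 21 in serum vesicles against CHIR99021-vacuolated cells. The summed level (log2 ratio) then ranged from -0.13 to 0.12 in CHIR99021-vacuolated cells and from -0.26 to 0.02 in serum-free vesicles against normal cells, so neither had a set direction. Npat in serum vesicles, at -0.07, was 0.04 with totals without the 2 most abundant rows and ranged from -0.31 to 0.03 with a library left out, and Hist1h2bd in BCS-vacuolated cells, at 0.32, ranged from -0.13 without BCS replicate 3 to 0.82 without BCS replicate 2. That scaling moved the median of all genes by 0.11 in serum vesicles against normal cells, -0.17 between the vesicle groups and 0.17 in serum vesicles against CHIR99021-vacuolated cells, and left 15 members lower in the first. The cause of these changes was not tested. In no comparison did all same-numbered pairs correlate above 0.1, and the reported fit did not pair the samples. This limit cannot show that the samples were unpaired. In BCS-vacuolated against normal cells all 3 libraries correlated best with the same-numbered one, at 0.04 to 0.07. With a replicate block, the members called against normal cells were 18 in sorted cells, 18 in serum vesicles and 14 in serum-free vesicles, 10 between the vesicle groups, and within 1.5 times of the reported count in the other comparisons. Hist1h1c in serum vesicles against normal cells then had an adjusted p of 0.0657.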

Other observations

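Members that start next to each other in opposite directions in RefSeq formed 3 pairs, Hist1h2aa with Hist1h2ba, Hist1h2bo with Hist1h2ai, whose starts lie 263 bases apart, and Hist2h2ac with Hist2h2be, 225 bases apart. In serum vesicles against normal cells Hist1h2bo had a log2 fold change of -1.07 and Hist1h2ai of -1.65, and both passed in edgeR. Hist2h2ac had 129, 95.4 and 128 CPM in serum-free vesicles against 106, 61.6 and 124 CPM in normal cells, while its partner Hist2h2be had 43 counts in the 3 serum-free libraries against 13 in the 3 normal ones.

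The count of Hist1h2ail1 was exactly 2 times its opposite-strand count in 13 of 18 libraries. Of 12470 rows with 50 or more counts, 32 had an even count in every library, and Hist1h2ail1 was the 1 member among them. Unstranded counts were 16.2% of the strand-specific counts for Hist2h2ac, 18.3% for Hist1h2an, 19.8% for Hist1h2aa, 31.7% for Hist1h2ah, 36.6% for Hist1h2ak and 38.4% for Hist1h2ai.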
